A study of Homo sapiens with 120 samples.

Results

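Single CFPAC-1 cells from the Fluidigm C1, a chip-based device that traps and lyses cells and amplifies their RNA one by one, were set against bulk libraries of the same line. CFPAC-1 is an established human line of pancreatic ductal adenocarcinoma. The comparison took 9 of the 120 libraries of the series, chosen by their labels: 5 C1 libraries labelled as 1 cell and 4 libraries labelled Bulk, each of about 10000 cells. It covered the 11229 of 30504 table rows that reached an FPKM of 1 or more in at least 4 of those 9 libraries. FPKM counts the sequenced fragments of a gene per unit of transcript length and per total of the library. Both groups were untreated ("None"), proliferation was recorded as unknown in both, and all 9 libraries were made with the SMARTer cDNA kit and Nextera XT. The labels name no culture, passage or day, so it is not known whether cells and bulk came from 1 culture. Empty C1 captures (5), C1 captures of 2 cells (5) and microraft libraries of 1 cell (10), which come from cells picked on small releasable culture elements, are quoted beside the results as further libraries of the study.

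A bulk library averages cells at every stage of the division cycle, while a single cell is at 1 stage when it is lysed. Genes of DNA replication are transcribed mainly from late G1 through S phase, and genes of mitosis mainly in G2 and M. In mammalian cells mitotic promoters often carry a CHR element and CCAAT boxes, which are read by the MuvB complex and NF-Y, and replication promoters often carry E2F sites. Interferon-stimulated promoters carry response elements bound by STAT and IRF factors. Transcription also comes in bursts, and a single cell holds few molecules of most mRNAs, so a gene can be at 0 in a single-cell library and present in bulk.

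Each C1 library is 1 cell and no culture is named, so each group counts as 1 sample and no test was made. Differences are means of log2(FPKM + 1) in the 5 cells minus those in the 4 bulk libraries, with SDs over libraries. A gene was called higher or lower in the cells when the difference was at least 2 on that scale (4-fold) and no cell overlapped any bulk library. Capture method, library set and number of cells differ together between the groups and cannot be told apart. Depth is unknown, because the table holds no counts. The cells had 8560 to 10474 genes at an FPKM of 1 or more, and the bulk libraries 8570 to 10581. Bulk replicate 1 stood apart, with 8570 genes against 10444 to 10581 in the other 3 and a Spearman rho with them of 0.791, against 0.884 to 0.899 for the others. Of the ductal epithelium markers, 9 of the 9 in the table were detected in at least 1 cell and in bulk, with summed levels of 1996 to 6457 FPKM in the cells and 1364 to 1955 FPKM in bulk. Of the markers of other cell types many were listed at 0 in all 9 libraries, among them CD3E, CD79A and HBB of blood, VWF and CDH5 of endothelium, DCN and COL3A1 of stroma, KRT5 and KRT14 of keratinocytes, and PRSS1 and GCG of the pancreas. The leukocyte gene PTPRC lay at 1.43 to 8.98 FPKM in the cells and the endothelial gene PECAM1 at 0.87 to 2.98 FPKM, and both were at 0 in bulk. The summed level of the blood markers was 5.02 to 120 FPKM in the cells and 9.08 to 62 FPKM in bulk, mostly from CD68, a lysosomal gene of macrophages, at 1.35 to 117 FPKM in the cells and 9.08 to 59.8 FPKM in bulk. CD14, a monocyte gene, was at 31.8 FPKM in cell 5, at 0 in the other cells and at up to 2.26 FPKM in bulk. The keratinocyte markers summed to 7.81 to 161 FPKM in the cells and 211 to 320.2 FPKM in bulk, from KRT10 and from DMKN, which stood at 6.1 to 142 FPKM in the cells and 108 to 164 FPKM in bulk. The acinar gene CELA3A was at up to 1.86 FPKM in the cells and 8.33 FPKM in bulk. The part of other cell types in the results was not tested.

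The largest differences ran in both directions. The 5 single cells were low in genes of mitosis and DNA replication and, by a smaller margin, in mitochondrial ribosomal and respiratory genes. The mitochondrial lists had median bulk levels at which rows of all kinds were more often called lower, as given below. The cells were high in genes such as FOS, TNFAIP2, DHRS3 and TOB1, all among the 15 largest differences called higher, and in several interferon-stimulated and antigen presentation genes. Of the 11229 rows, 814 (7.25%) were called higher in the cells and 1277 (11.4%) lower. Without regard to size, all 5 cells lay above all 4 bulk libraries for 1382 rows (12.3%) and below them for 1694 rows (15.1%). The median difference over all rows was -0.27, and the lower and upper quartiles were -1.55 and 1.07. After quantile normalization the median was 0.04 and the calls divided 1148 higher to 1061 lower, so differences below are read against that shift. Without bulk replicate 1 the calls were 821 higher and 1450 lower. The bulk libraries were also taken as 2 pairs by the style of their titles, though no label states a pair. The calls were 986 higher and 1404 lower against replicates 1 and 2, and 880 higher and 1550 lower against replicates 3 and 4.

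**Figure D1:**
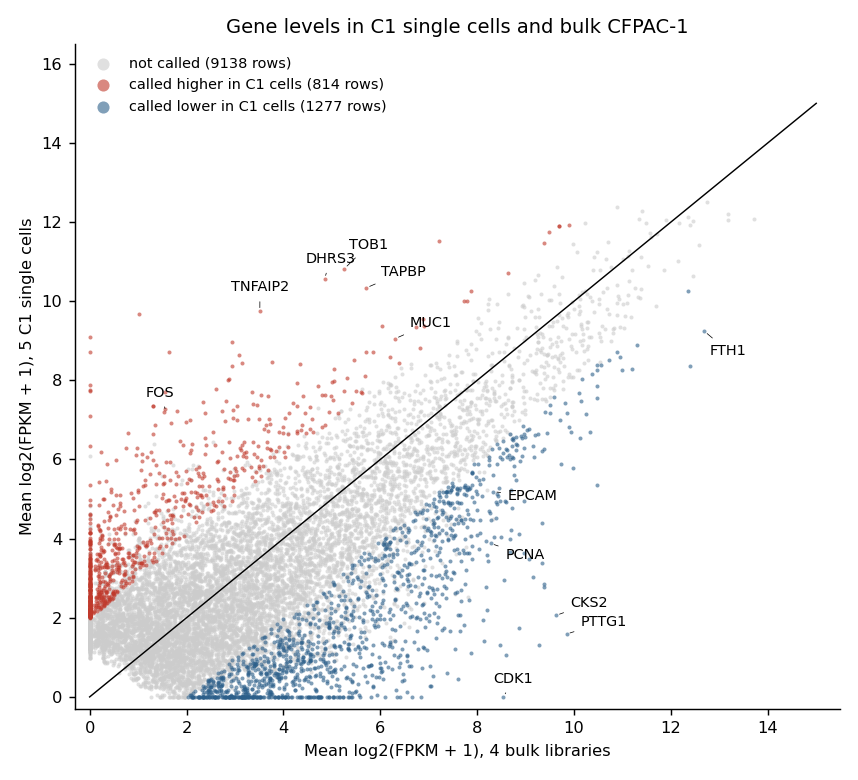
Mean log2(FPKM + 1) of the 4 bulk libraries (x axis) and of the 5 C1 single cells (y axis), with 1 point for each of the 11229 rows compared and a line of equal levels. Red points mark the 814 rows called higher in the cells and blue points the 1277 called lower, and CDK1 lies at 0 on the y axis.

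The detection filter bears on both directions. Of the rows compared, 357 passed it through the 4 bulk libraries alone, with no cell at an FPKM of 1, and 887 rows were below 1 in all bulk libraries. Rows listed at 0 in all 5 cells numbered 201, of which 180 were called lower. Rows listed at 0 in all bulk libraries numbered 576, of which 237 were called higher. Among the 3178 rows detected in all 9 libraries the median difference was -0.19, with 200 called higher and 300 lower.

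Genes of G2 and mitosis were low in every one of the 5 cells. Of 56 listed genes 53 were compared, all 53 differences were below 0, and 47 were called lower, or 88.7% against the 11.4% over all rows. None was called higher. The median difference was -4.76, and -4.68 after quantile normalization. Taken for each cell in turn against the bulk mean, the medians were -4.71, -4.50, -5.01, -4.71 and -4.47. All 53 genes were detected in each bulk library, while the cells detected 12, 12, 10, 7 and 17 of them. No cell reached the lowest bulk library for more than 2 of the 53 genes. Of the 10750 rows of names that occur once, the cells detected 7441 to 8647. They reached the lowest bulk library for 6313 to 6840 of those rows. Of the 53, 29 passed the filter through bulk alone and had to be low, and 21 were listed at 0 in all 5 cells. Among the 24 detected in at least 1 cell, 18 were called lower. Over all names that occur once, 964 of the 10404 rows detected in at least 1 cell were. Because so many values were 0, the median depends on the pseudocount and ran from -7.53 at 0.1 to -2.79 at 5. In bulk libraries, more dividing cells and more mitotic RNA per cell cannot be told apart.

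The promoters of CDK1 and CKS2, genes with large differences and both motifs, show the sequence features that many genes of this list share. The sequences are from RefSeq (GRCh38.p14), from 250 bases before to 50 bases after the gene start, matched by symbol. They are read 5′ to 3′ on the gene's strand, with the CHR element (TTTGAA, or TTCAAA on the other strand) and CCAAT boxes (CCAAT or ATTGG) in capitals.
CDK1: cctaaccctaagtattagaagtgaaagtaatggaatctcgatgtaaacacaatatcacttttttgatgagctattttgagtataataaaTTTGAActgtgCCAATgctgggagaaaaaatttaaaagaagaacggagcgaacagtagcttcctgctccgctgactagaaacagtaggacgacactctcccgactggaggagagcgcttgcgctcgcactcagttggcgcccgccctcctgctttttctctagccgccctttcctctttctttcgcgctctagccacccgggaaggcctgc
CKS2: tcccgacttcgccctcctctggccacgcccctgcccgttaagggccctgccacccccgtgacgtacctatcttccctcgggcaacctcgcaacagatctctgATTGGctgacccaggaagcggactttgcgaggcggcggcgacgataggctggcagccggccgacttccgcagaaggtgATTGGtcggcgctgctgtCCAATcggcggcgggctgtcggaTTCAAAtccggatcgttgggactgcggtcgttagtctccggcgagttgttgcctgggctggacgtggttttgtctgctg
CDK1 stands at chr10:60778081-60778380 on the plus strand and its window holds 1 CHR element and 1 CCAAT box. CKS2 stands at chr9:89310945-89311244 on the plus strand, with 1 CHR element and 3 CCAAT boxes. Of the 53 genes compared 44 had a promoter in the table. A CHR element was found in 30 of them (68.2%) and in 15.4% of all 27305 promoters, and a CCAAT box in 31 (70.5%) and in 35.7% of all. In these windows no CHR element overlaps a CCAAT box. Of the 1006 promoters in the table for all genes called lower, 160 (15.9%) held a CHR element and 420 (41.75%) a CCAAT box. A match describes the letters only, and the list was built from genes known for mitosis.

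Regulators of mitotic entry and exit showed the pattern most plainly. CDK1, the kinase whose activity starts mitosis, was listed at 0 in all 5 cells and at 412, 583, 252 and 316 FPKM in bulk. CCNB1, its cyclin partner, had 0.32, 28.2, 0, 0 and 0 FPKM in the cells and 308, 487, 471 and 320.4 FPKM in bulk. CCNB2, the second B-type cyclin, had 0, 0, 0, 0 and 46.5 FPKM in the cells and 252, 249, 206 and 234 FPKM in bulk. CDK1 was thus listed at 0 in each cell, where the unknown depth limits what a 0 shows, and each cyclin was above 1 FPKM in a single cell, a different one for CCNB1 and CCNB2. CKS2, a small subunit that docks on CDK1, had 0, 50.1, 0, 0 and 23.7 FPKM in the cells and 1128, 674, 735 and 701 FPKM in bulk. PTTG1, or securin, which holds back separase until anaphase, had 127, 0.93, 0, 0 and 0 FPKM in the cells and 1025, 761, 915 and 999.5 FPKM in bulk. UBE2C, an E2 enzyme of the anaphase-promoting complex, had 0, 0, 95.7, 0 and 0 FPKM in the cells and 545, 558, 686 and 718 FPKM in bulk. Each of these genes was high in no more than 2 of the cells, and the highest cell stayed below the lowest bulk library. CDK1 passed the filter through bulk alone and had to be low. The mean log2(FPKM + 1) of PTTG1 was 1.59 ± 3.05 in the cells (SD, n = 5) and 9.85 ± 0.19 in bulk (n = 4), a difference of -8.26. For UBE2C the means were 1.32 ± 2.95 and 9.28 ± 0.20, a difference of -7.96.

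Spindle and checkpoint genes showed like values. MAD2L1, a spindle checkpoint protein, had 0, 15.6, 0, 2.79 and 5.59 FPKM in the cells and 579, 527, 379 and 397 FPKM in bulk. ZWINT, which links the kinetochore to the checkpoint and is in none of the lists, had 0, 0, 3.96, 0 and 0 FPKM in the cells and 175, 188, 206 and 207 FPKM in bulk. NUF2, a subunit of the NDC80 complex that binds microtubules, and the mitotic kinase PBK, which is in none of the lists, were listed at 0 in all 5 cells, against 74.1 to 132 and 106 to 131 FPKM in bulk. NUF2 and PBK passed the filter through bulk alone and had to be low. For MAD2L1 and ZWINT, each detected in at least 1 cell, no cell overlapped the bulk range. KPNA2, an importin that carries mitotic cargo among others and is likewise in no list, was uneven, with 0.46, 209, 0, 0 and 64.3 FPKM in the cells and 568, 866, 711 and 568 FPKM in bulk. RANBP1, a regulator of the RAN GTPase that was not listed either, was low in each cell, with 3.17, 2.25, 0, 2.09 and 1.3 FPKM against 323, 305, 416 and 382 FPKM in bulk. MKI67, the proliferation marker Ki-67, had 6.43, 0, 1.69, 0 and 0 FPKM in the cells and 6.99, 14.2, 10.7 and 7.04 FPKM in bulk, so cell 1 nearly reached bulk replicate 1. TOP2A, the topoisomerase that untangles chromosomes, had 0.73, 0.11, 0, 0 and 0.4 FPKM in the cells and 153, 164, 119 and 99.2 FPKM in bulk. The empty captures had 0.88, 0.63, 300.5, 707 and 2953 FPKM of TOP2A, so 3 captures without a cell exceeded all 4 bulk libraries, and their part in the cells' low values was not tested. UBE2S, the chain-elongating E2 enzyme of the anaphase-promoting complex, had 0.59, 0, 0, 0 and 0 FPKM in the cells and 47.6, 92.2, 148 and 113 FPKM in bulk. TOP2A and UBE2S also passed the filter through bulk alone and had to be low.

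C1 captures of 2 cells were uneven for the same list. They detected 13, 14, 49, 26 and 48 of the 53 genes in captures 1 to 5, with medians against bulk of -4.37, -4.71, -0.61, -4.08 and -1.35, so captures 3 and 5 held most of the list and captures 1 and 2 as little as the single cells. CCNB1 in those captures stood at 0, 0, 237, 0 and 331 FPKM and PTTG1 at 0, 13.7, 606, 23 and 496 FPKM. UBE2S stood at 0, 0, 0, 4.54 and 0 FPKM, and was thus not detected in captures 3 and 5 either. CDK1 stood at 0, 0, 19.9, 0 and 1.07 FPKM, below the lowest bulk library in all 5. Microraft libraries of 1 cell detected 16 to 52 of the 53 genes. Of the 10750 rows of names that occur once, the 2-cell captures detected 6820 to 9287 and the microraft libraries 4401 to 7204. These levels stand beside the C1 and bulk values and were not compared further, since they share the bulk libraries.

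**Figure D2:**
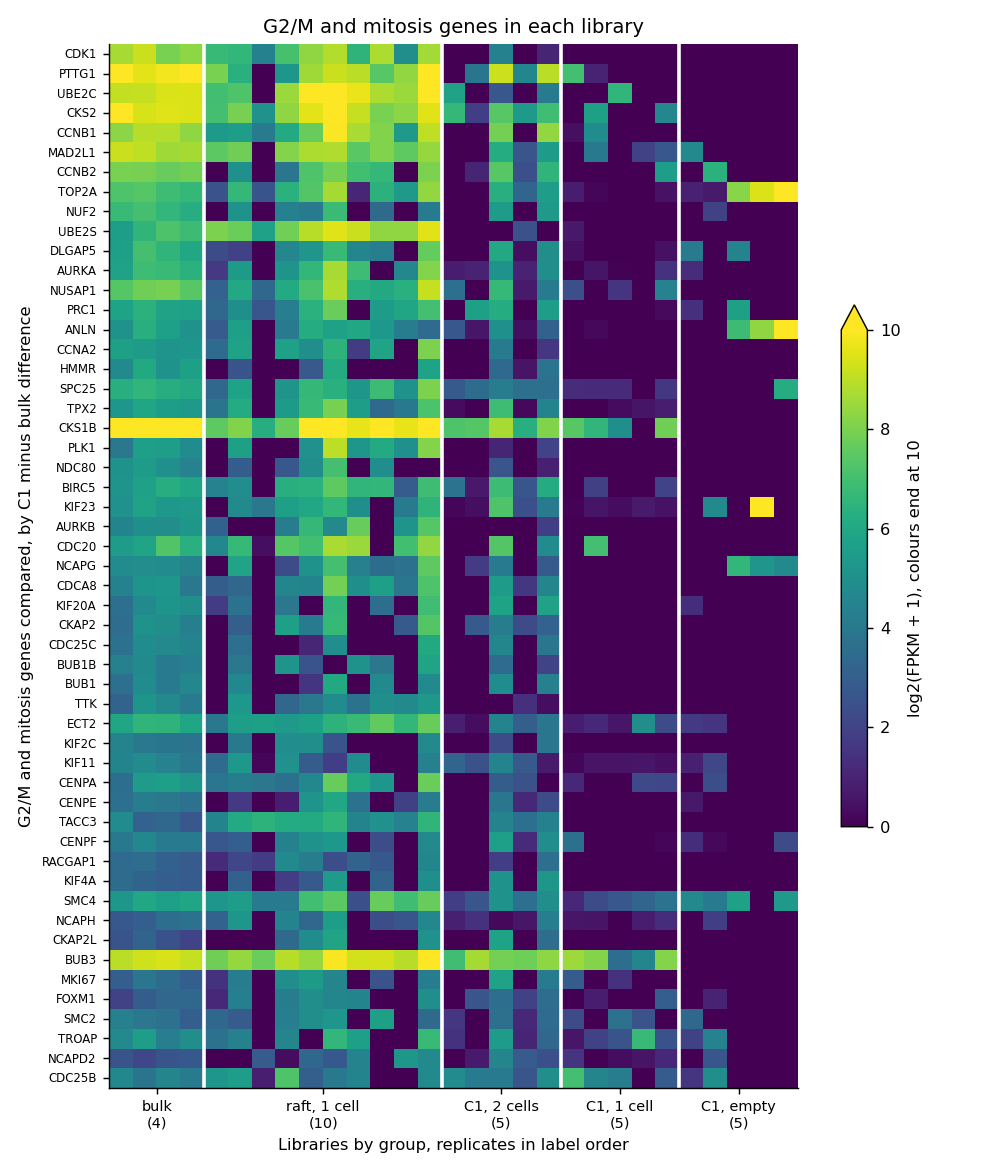
log2(FPKM + 1) of the 53 G2/M and mitosis genes compared (rows, the lowest difference at the top) in each library of 5 groups (columns), with colours that end at 10. The 5 single-cell C1 columns are dark for most rows, the third and the fifth of the 2-cell captures are not, and TOP2A, ANLN and KIF23 are bright in some empty captures.

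DNA replication genes were also low, with more spread between cells. Of 50 listed genes 47 were compared, 45 had a difference below 0, and 30 were called lower (63.8%, against 11.4% over all rows), with none called higher. The median difference was -3.30 (-3.25 after quantile normalization), and -3.29, -3.69, -3.87, -3.06 and -2.62 in cells 1 to 5. The cells detected 16, 16, 15, 20 and 33 of the 47 genes, so cell 5 held the most. Of the 10750 rows of names that occur once they detected 7441 to 8647, also the most in cell 5. Through bulk alone 9 of the 47 genes passed the filter and had to be low. Among the 38 detected in at least 1 cell, 22 were called lower, against 964 of 10404 such rows over all names that occur once. GINS2, a subunit of the replicative helicase, had 0, 0, 0, 0 and 68 FPKM in the cells and 158, 189, 216 and 182 FPKM in bulk. MLF1IP, a centromere protein now named CENPU, had 0, 0, 0, 0 and 14.4 FPKM in the cells and 95.5, 145, 108 and 56.6 FPKM in bulk. Both were seen in cell 5 alone. PCNA, the sliding clamp of DNA polymerases, was present in every cell, with 10.7, 12.9, 18.2, 59.8 and 2.61 FPKM against 362, 349.5, 236 and 308 FPKM in bulk. Its mean log2(FPKM + 1) was 3.88 ± 1.46 in the cells (SD, n = 5) and 8.28 ± 0.28 in bulk (n = 4), a difference of -4.40. RFC4, a clamp loader subunit, had 1, 0.47, 0, 0 and 19.4 FPKM in the cells and 98.8, 177, 101 and 134 FPKM in bulk. GMNN, or geminin, which blocks re-licensing of origins, had 10.1, 37.5, 6.6, 0 and 0.55 FPKM in the cells and 236, 228, 242 and 203 FPKM in bulk. RFC4 and GMNN thus each came nearest to bulk in a different cell. SLBP, which binds histone mRNA, had 3.9, 0, 3.2, 0 and 2.49 FPKM in the cells and 80.2, 117, 165 and 126 FPKM in bulk. TFDP1, a DNA-binding partner of E2F factors outside the list, was listed at 0 in all 5 cells, against 67.1 to 116 FPKM in bulk. It passed the filter through bulk alone and had to be low. Of the 47 genes 39 had a promoter in the table, and the E2F element (TTTNNCGC, both strands) was found in 21 (53.8%), against 6.90% of all promoters. For all genes called lower it was found in 139 of 1006 promoters (13.8%).

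Enzymes that make or activate nucleotides were low with the replication genes, and several belong to both lists. Of 13 genes of gemcitabine transport and metabolism compared, 12 had a difference below 0 and 5 were called lower (38.5%, against 11.4% over all rows), with a median of -1.78. Of the 13, 2 passed the filter through bulk alone, and 1 of these, TYMS, was among the 5 called. RRM2, the S-phase subunit of ribonucleotide reductase, had 0.49, 1.37, 0.58, 0 and 1.33 FPKM in the cells and 67.6, 60.5, 66.1 and 57.3 FPKM in bulk. Its large subunit RRM1 had 1.09, 20.4, 2.12, 0 and 2.3 FPKM in the cells and 77.3, 63.8, 56 and 40.7 FPKM in bulk. TYMS, or thymidylate synthase, was listed at 0 in all 5 cells and at 83, 37, 31.4 and 25.5 FPKM in bulk. All 3 enzymes lay below bulk in each cell. DCK, the kinase that activates deoxycytidine and gemcitabine, had 7.22, 1.01, 0, 2.81 and 0 FPKM in the cells and 52.4, 55.1, 30.7 and 29.3 FPKM in bulk. CDA, the deaminase that inactivates cytidine analogs, had 0, 0, 0, 0 and 3.59 FPKM in the cells and 33.9, 18.7, 25.2 and 7.86 FPKM in bulk. Neither reached its lowest bulk library in any cell. TUBA4A, an alpha tubulin, had 0, 17.4, 3.49, 0 and 0 FPKM in the cells and 71, 65.8, 74.7 and 87.5 FPKM in bulk. Tubulin genes had 4 of 9 members called lower (44.4%, against 11.4% over all rows) and a median of -2.80. TUBA1B had 71.1, 13.6, 387, 235 and 125 FPKM in the cells and 1376, 1223, 1121 and 1432 FPKM in bulk, while its near-identical copy TUBA1C had 7.74, 93.5, 0, 30.3 and 106 FPKM in the cells and 0 in all bulk libraries. Reads of such copies can be divided between rows, so each value alone is uncertain.

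**Figure D3:**
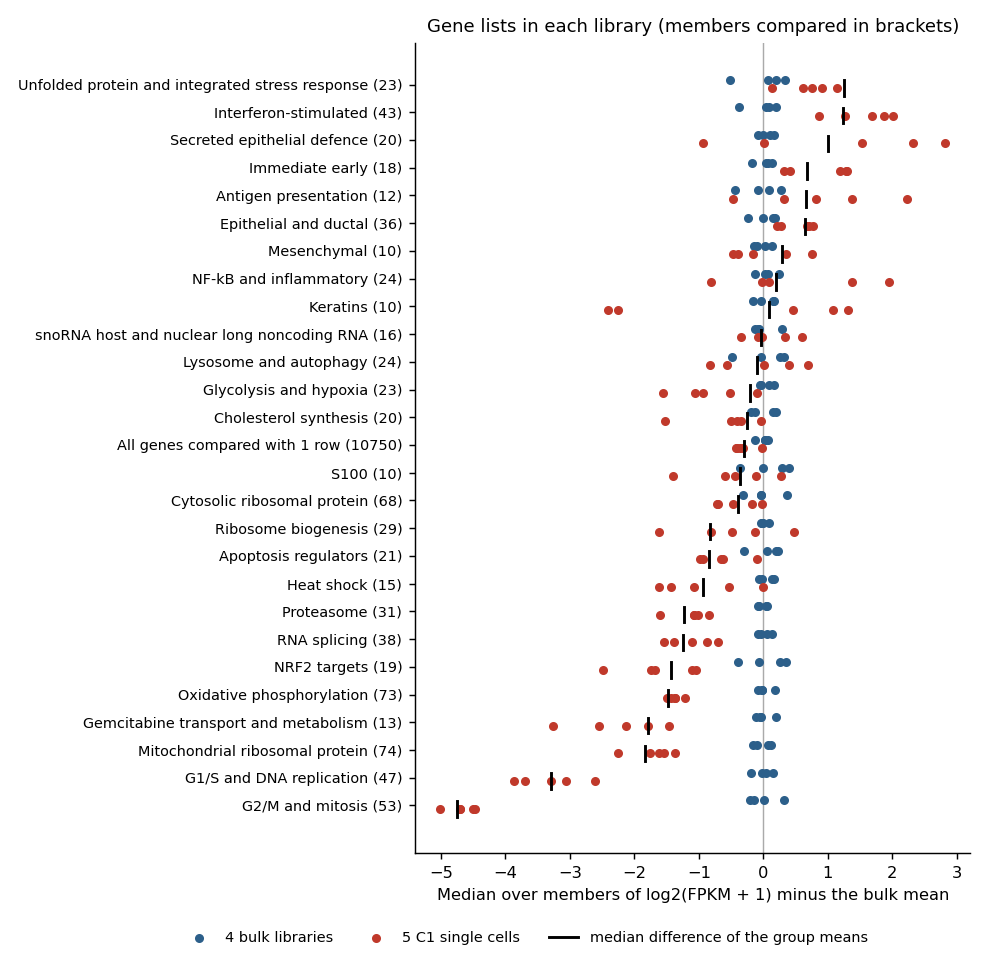
Median over the members of each gene list (rows, with the number compared) of log2(FPKM + 1) minus the bulk mean, in each C1 single cell (red) and each bulk library (blue), with the median difference of the group means (black). The 5 cells lie together and far left for G2/M and mitosis, and they spread widely for keratins and secreted defence genes.

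Mitochondrial genes encoded in the nucleus were lower in the cells by a smaller margin, in each of the 5 cells. Of 74 mitochondrial ribosomal protein genes, which make the ribosome inside the organelle, 67 had a difference below 0 and 27 were called lower (36.5%, against 11.4% over all rows), with a median of -1.83 (-1.62, -1.76, -1.37, -2.26 and -1.53 by cell). All 74 were detected in at least 1 cell. MRPL1 had 5.14, 5.82, 7.58, 8.1 and 17.3 FPKM in the cells and 249.8, 189.6, 124 and 121 FPKM in bulk, a difference of -4.19. MRPL23 had 0, 0, 18.7, 0 and 2.34 FPKM in the cells and 77.2, 76.7, 91.5 and 103 FPKM in bulk. MRPL37 had 50.5, 2.79, 27.8, 1.56 and 0 FPKM in the cells and 87.1, 149, 287 and 186 FPKM in bulk. MRPL1 was low in each cell to a like degree, and the other two were at or near 0 in some cells and closer to bulk in others. Among 73 oxidative phosphorylation genes 66 had a difference below 0 and 14 were called lower (19.2%, nearer to the 11.4% over all rows), with a median of -1.48 (-1.37, -1.44, -1.50, -1.36 and -1.21 by cell). Of all rows at 100 to 1000 FPKM in bulk, 346 of 1026 were called lower, with a median of -1.59. From 10 to 100 FPKM 665 of 3656 were, and at 1 to 10 FPKM 243 of 4824 were. The median bulk log2(FPKM + 1) was 6.93 for mitochondrial ribosomal and 8.57 for oxidative phosphorylation genes. Both lay within the class of 100 to 1000 FPKM, the first of them near its lower end. The part of bulk level in these calls was not tested. NDUFA5, a subunit of complex I, had 33.3, 15.4, 20.01, 53.9 and 13.9 FPKM in the cells and 333, 373, 282 and 256 FPKM in bulk. UQCRFS1, the iron-sulfur protein of complex III, had 14.3, 2.15, 34.4, 117 and 29.5 FPKM in the cells and 311, 309.5, 411 and 310.1 FPKM in bulk. CYC1, the cytochrome of complex III, had 0, 0, 32, 21.2 and 48.3 FPKM in the cells and 114, 168, 219 and 182 FPKM in bulk. Cell 4 was the highest for NDUFA5 and UQCRFS1 and cell 5 for CYC1, and CYC1 was at 0 in cells 1 and 2. COX5A, a subunit of complex IV, had 2.74, 63.9, 68.6, 163 and 6.76 FPKM in the cells and 255, 278, 406 and 451 FPKM in bulk. CYCS, or cytochrome c, had 8.69 to 24.6 FPKM in the cells and 69 to 199 FPKM in bulk. No cell reached bulk for any of these 5 genes.

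Cytosolic ribosomal protein genes, in contrast, lay close to bulk, and 1 of 68 was called lower (1.47%, against 11.4% over all rows) and none higher. Their median was -0.40, or -0.05 after quantile normalization. RPS7 was the 1 called, with 315 to 727 FPKM in the cells and 1777 to 3795 FPKM in bulk. These genes have many near-identical pseudogene copies, so single rows are uncertain. Proteasome subunits had a median of -1.23 with 5 of 31 called lower (16.1%, against 11.4% over all rows) and 1 higher. PSMA1 had 16.1 to 149.8 FPKM in the cells and 295 to 432 FPKM in bulk. PSMA7, a subunit of the same core ring, had 185 to 472 FPKM in the cells and 1259 to 1372 FPKM in bulk. PSMB4, a subunit of the same core, was the 1 called higher, with 1518, 807, 1929, 1348 and 897 FPKM in the cells and 245, 186, 238 and 280.3 FPKM in bulk. RNA splicing genes had a median of -1.24, with 10 of 38 called lower and 1 higher (26.3% and 2.63%, against 11.4% and 7.25% over all rows). The median bulk log2(FPKM + 1) was 7.88 for proteasome and 7.47 for splicing genes, both within the class of 100 to 1000 FPKM. In that class 346 of 1026 rows of all kinds were called lower, with a median of -1.59. The part of bulk level in the calls of these 2 lists was not tested. LSM3, of the ring that binds U6 RNA, had 2.5 to 41.1 FPKM in the cells and 388 to 614 FPKM in bulk. SRSF6, a serine-arginine splicing factor, was the 1 called higher, with 163 to 675 FPKM in the cells and 26.9 to 50.02 FPKM in bulk, and 0 to 1129 FPKM in empty captures.

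Interferon-stimulated genes were mostly higher in the cells. Of 48 listed genes 43 were compared, 35 had a difference above 0, 10 were called higher (23.3%, against 7.25% over all rows) and none lower. The median difference was 1.23 (1.54 after quantile normalization), and 1.86, 1.26, 2.01, 1.68 and 0.87 in cells 1 to 5. Every member passed with at least 1 cell and 1 bulk library at an FPKM of 1. IRF9, a DNA-binding subunit of the interferon-activated factor complex, had 171, 295, 113, 189.8 and 166 FPKM in the cells, 0, 7.74, 12.6 and 19.8 FPKM in bulk and 0 in all 5 empty captures. STAT2 had 12, 114, 20.9, 25.3 and 13.4 FPKM in the cells and 3.27, 4.98, 5.02 and 2.17 FPKM in bulk, but 64.6, 335, 19.8, 13 and 0 FPKM in the empty captures. GBP2, an interferon-induced GTPase, had 309, 125, 368, 203 and 90.7 FPKM in the cells and 9.28, 28.8, 31.5 and 19 FPKM in bulk. IRF9 and GBP2 were thus well above bulk in each cell and low or at 0 in captures without a cell, which was not so for STAT2. XAF1, a proapoptotic interferon target, had 28.2, 73.3, 73.6, 63.3 and 61.6 FPKM in the cells, 0, 4.38, 1.54 and 2.19 FPKM in bulk and 56, 171, 40.6, 40.2 and 11.9 FPKM in the empty captures, which overlapped the cells. DTX3L, a ubiquitin ligase partner of PARP9, had 77.1, 64.9, 28.1, 30.9 and 9.24 FPKM in the cells and 1.89, 5.9, 5.77 and 4.64 FPKM in bulk. The empty captures had 0 to 57.4 FPKM of DTX3L, which overlapped the cells. IFI6, a mitochondrial interferon-induced protein, had 119, 41.3, 273, 126 and 89.7 FPKM in the cells and 29.3, 13.2, 23.4 and 27.2 FPKM in bulk. Both genes were above bulk in each cell, with cell 5 nearest to it for DTX3L and cell 2 for IFI6. The abundant IFI27 had 4856, 2707, 5417, 3529 and 3382 FPKM in the cells and 951, 755, 739.7 and 847 FPKM in bulk. Its mean log2(FPKM + 1) was 11.91 ± 0.41 in the cells (SD, n = 5) and 9.68 ± 0.17 in bulk (n = 4), a difference of 2.23. Of the 10 called members 4 were detected in at least 3 of 5 empty captures, and the part of such background in those levels was not tested. ISG15, the ubiquitin-like modifier, was not called, with 266, 115, 1259, 61.2 and 376 FPKM in the cells and 98.7, 113, 205 and 130.1 FPKM in bulk, where cells 2 and 4 lay within or below the bulk range.

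The promoters of IFI6 and IFI27, called members with a response element core, are shown for that element, in capitals (GAAANNGAAA, or its reverse complement). They are again RefSeq windows of GRCh38.p14, 5′ to 3′ on the gene's strand.
IFI6: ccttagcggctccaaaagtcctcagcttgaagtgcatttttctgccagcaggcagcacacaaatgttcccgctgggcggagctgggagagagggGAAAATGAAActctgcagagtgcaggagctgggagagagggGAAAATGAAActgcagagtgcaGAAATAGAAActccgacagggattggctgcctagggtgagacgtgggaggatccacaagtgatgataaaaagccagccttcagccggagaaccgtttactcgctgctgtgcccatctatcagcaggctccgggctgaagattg
IFI27: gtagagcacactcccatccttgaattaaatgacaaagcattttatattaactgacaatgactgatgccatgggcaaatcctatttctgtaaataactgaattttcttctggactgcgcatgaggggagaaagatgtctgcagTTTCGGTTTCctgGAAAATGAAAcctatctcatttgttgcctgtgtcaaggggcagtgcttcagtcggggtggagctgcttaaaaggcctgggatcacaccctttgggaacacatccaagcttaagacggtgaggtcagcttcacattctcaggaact
IFI6 stands at chr1:27672143-27672442 on the minus strand, with 3 matches, and IFI27 at chr14:94110486-94110785 on the plus strand, with 2. A match was found in 22 of 35 members with a promoter in the table (62.9%) and in 3.65% of all 27305 promoters. Of the 10 members called higher 9 had a promoter in the table, and 6 of those held a match. For all genes called higher it was 15 of 354 promoters (4.24%).

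Antigen presentation genes were called higher in part. Of 12 compared, 4 were called higher (33.3%, against 7.25% over all rows) and none lower, with a median of 0.66 (2.22, -0.48, 1.37, 0.32 and 0.82 by cell). TAPBP, or tapasin, which loads peptides on class I molecules, had 3538, 1069.5, 1107, 1495 and 576 FPKM in the cells and 35, 59.1, 57.4 and 58.9 FPKM in bulk. CALR, the chaperone calreticulin, had 109, 118, 164, 66.2 and 105 FPKM in the cells and 4.21, 12.8, 24.6 and 10.4 FPKM in bulk. The empty captures had 0 to 138 FPKM of CALR and 0 to 349.7 FPKM of TAPBP, and for CALR 1 of them was in the range of the cells. HLA-E, a nonclassical class I gene, had 393, 313, 255, 163 and 27.9 FPKM in the cells and 21.1, 17.4, 21.6 and 11.2 FPKM in bulk. CD74, the invariant chain of class II, had 1517, 380.4, 1809, 825 and 1309.5 FPKM in the cells and 125, 274, 257 and 229.6 FPKM in bulk, with 0 to 786 FPKM in empty captures. TAPBP had the widest gap of the 4, and HLA-E in cell 5 came nearest to bulk. B2M, the light chain of class I, was not called, with 11685, 2602, 3617, 3652 and 3449.9 FPKM in the cells and 13245, 8544, 7319 and 8736 FPKM in bulk, and only cell 1 was within the bulk range. HLA genes are polymorphic and alike, so their rows are uncertain.

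Immediate early and inflammatory genes held some of the largest differences, with few members called. Of 18 immediate early genes 3 were called higher (16.7%, against 7.25% over all rows) and none lower, around a median of 0.67. FOSB, 1 of the 3, was below 1 FPKM in all bulk libraries, passed the filter through the cells alone and had to be higher. FOS, a subunit of the AP-1 factor, had 771, 163, 199.7, 26.8 and 129 FPKM in the cells and 0, 2.67, 3.41 and 3.63 FPKM in bulk. TOB1, an antiproliferative regulator of mRNA deadenylation, had 2624, 2649, 976, 3628 and 795 FPKM in the cells and 31.7, 43, 33.4 and 42.6 FPKM in bulk. FOSB, a relative of FOS, had 1.4, 2.5, 36.8, 1.7 and 6.18 FPKM in the cells and 0, 0.42, 0 and 0 FPKM in bulk. FOS and TOB1 were far above bulk in each cell, and FOSB was high in cell 3. The empty captures had 82.2, 0, 0, 21 and 0 FPKM of FOS and 41, 2.92, 285, 0 and 0 FPKM of TOB1. The mean log2(FPKM + 1) of TOB1 was 10.82 ± 0.97 in the cells (SD, n = 5) and 5.26 ± 0.22 in bulk (n = 4), a difference of 5.56. Of 24 NF-kB and inflammatory genes 3 were called higher and 1 lower (12.5% and 4.17%, against 7.25% and 11.4% over all rows), with a median of 0.19 that ran from -0.81 in cell 2 to 1.95 in cell 3. TNFAIP2, induced by tumour necrosis factor, had 536, 876, 2945, 668 and 502 FPKM in the cells and 14.7, 7.87, 8.99 and 11.2 FPKM in bulk. LCN2, the secreted iron-binding lipocalin, had 5567, 1204, 3714, 3506 and 5746 FPKM in the cells and 884, 659, 638 and 689.96 FPKM in bulk. TNFAIP2 was highest in cell 3, and LCN2 was lowest in cell 2, with 0 to 1129.8 FPKM in empty captures. C3, of the complement system, had 145, 14.4, 117, 34.1 and 46.4 FPKM in the cells, 6.27, 10.4, 6.1 and 10.6 FPKM in bulk and 0.99, 357, 25.3, 116 and 81.7 FPKM in empty captures. NFKB1, the p105 subunit, was the 1 called lower, with 0.45 to 3.41 FPKM in the cells and 6.65 to 12 FPKM in bulk. The chemokine gene IL8 was split, with 0, 22.7, 450.5, 200.03 and 0 FPKM in the cells and 147, 63.3, 39.98 and 36.4 FPKM in bulk, and was not called.

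Epithelial genes were called in both directions, at about the shares over all rows. Of 36 epithelial and ductal genes 3 were called higher and 4 lower (8.33% and 11.1%, against 7.25% and 11.4% over all rows), with a median of 0.64 (0.20, 0.27, 0.68, 0.77 and 0.70 by cell). Of the 4 called lower 2 passed the filter through bulk alone and had to be low. MUC1, a membrane mucin of ductal cells, had 555, 345, 501, 1098 and 398 FPKM in the cells and 73.5, 100.4, 43.8 and 116 FPKM in bulk, and 86.3, 89.3, 0, 8914 and 0 FPKM in the empty captures. ELF3, an epithelial ETS factor, had 545, 66.2, 89, 244 and 146 FPKM in the cells and 15.3, 18.2, 27.7 and 15.2 FPKM in bulk. DSP, the desmosome protein desmoplakin, had 12.4, 46.9, 69.9, 23 and 18.9 FPKM in the cells and 6.04, 5.29, 2.83 and 4.01 FPKM in bulk, with 0, 0.56, 0, 0 and 1644 FPKM in empty captures. All 3 exceeded bulk in each cell, and each was also present in some empty captures. EPCAM, the epithelial adhesion molecule, was lower, with 33.7, 23.4, 32.5, 21.4 and 99.8 FPKM in the cells and 366, 284, 315 and 326 FPKM in bulk, a difference of -3.15. TSPAN8, a tetraspanin of pancreatic and gut tumours, had 69.2, 0, 1.55, 14.6 and 0 FPKM in the cells and 122, 101, 186 and 210.3 FPKM in bulk. Both lay below bulk in each cell. The keratins of simple epithelium were not called. KRT8 had 577, 580.3, 1570.2, 1731 and 926 FPKM in the cells and 242, 341, 398 and 409.7 FPKM in bulk, so no cell was within the bulk range and the difference stayed under 2. KRT18, its partner, had 642, 1007, 4114, 1080.3 and 1452 FPKM in the cells and 545, 724, 1018 and 854 FPKM in bulk, and KRT7 had 8.36, 84.3, 149, 161 and 117 FPKM in the cells and 33.1, 34.5, 43.1 and 46.6 FPKM in bulk. Cell 3 was highest for KRT18, and cell 1 was below all bulk libraries for KRT7. Of 10 keratins compared 1 was called lower (10%, against 11.4% over all rows) and none higher. This was KRT10, a keratin of differentiated epidermis, with 1.63 to 18.2 FPKM in the cells and 103 to 174 FPKM in bulk.

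Secreted defence and differentiation genes were higher as a group in some cells and not in others. Of 20 compared, 5 were called higher and 2 lower (25% and 10%, against 7.25% and 11.4% over all rows), with a median of 1.01 and cell medians of 2.32, -0.94, 2.82, 0.01 and 1.52. DHRS3, a retinal reductase, had 1715, 397, 2047, 4637 and 1223 FPKM in the cells and 11.8, 15, 59.5 and 54.9 FPKM in bulk. The empty captures had 0, 1.34, 72.9, 408 and 0 FPKM of DHRS3, so the highest of them exceeded cell 2. CRABP2, which carries retinoic acid to the nucleus, had 144, 76.2, 339.6, 134 and 139 FPKM in the cells and 0, 11.7, 13.6 and 9.5 FPKM in bulk. TMPRSS4, a membrane serine protease, had 196, 309.9, 542, 717 and 227 FPKM in the cells and 11.5, 9.24, 24.6 and 9.44 FPKM in bulk. These 3 genes were above bulk in each cell. GABRP, a subunit of the GABA receptor found in epithelia, had 695, 406, 706, 104 and 413 FPKM in the cells and 46.3, 84.1, 87.3 and 83.6 FPKM in bulk, and 0, 1.74, 243, 560.4 and 1965 FPKM in empty captures. SLPI, a secreted protease inhibitor, varied between cells, with 1225, 20.1, 5292, 789.8 and 975 FPKM against 813, 350.2, 166 and 291 FPKM in bulk. It was not called, since its difference was 0.89 and cell 2 lay below every bulk library. SERPINB3, a squamous serpin, was called lower, with 13.7, 0, 12.7, 0 and 5.39 FPKM in the cells and 146, 173, 113 and 91.1 FPKM in bulk. Of 10 mesenchymal genes 1 was called higher and 3 lower (10% and 30%, against 7.25% and 11.4% over all rows). AXL, a receptor kinase, was the 1 called higher, with 403, 1369.6, 288, 740.4 and 1045 FPKM in the cells and 62.8, 88.2, 46.3 and 66.1 FPKM in bulk, and 19.5, 702, 29.1, 0 and 11 FPKM in empty captures. SERPINB3 and AXL thus lay on opposite sides of bulk in all 5 cells. VIM, or vimentin, was called lower, with 145, 172, 33.7, 186 and 45.5 FPKM in the cells and 448, 416, 455 and 453 FPKM in bulk, and 0, 729.96, 1444, 0 and 199 FPKM in empty captures. DHRS9, another retinol dehydrogenase, ran opposite to DHRS3, with 0, 0.02, 0, 25.2 and 3.91 FPKM in the cells and 207, 299, 333 and 307 FPKM in bulk. DHRS9 was in none of the lists and was near 0 in 3 cells. PTHLH, the parathyroid hormone-like hormone, had 0, 0, 7.1, 0 and 0 FPKM in the cells and 180.02, 283, 129.99 and 112 FPKM in bulk.

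Stress response genes were called in both directions, at shares not far from those over all rows. The unfolded protein and integrated stress response list had 3 members called higher and 3 lower of 23 (13% each, against 7.25% and 11.4%), with a median of 1.25. PPP1R15A, or GADD34, which restores translation after stress, had 51.6, 26.2, 46.4, 93.8 and 20.8 FPKM in the cells, 3.37, 1.14, 1.46 and 2.07 FPKM in bulk and 0 in all empty captures. ASNS, or asparagine synthetase, had 96.2, 509, 131, 145 and 203 FPKM in the cells and 56.8, 44.5, 14.5 and 26.5 FPKM in bulk, with 0 to 396 FPKM in empty captures. PSAT1, of serine synthesis, had 144, 114, 47.5, 162 and 82.6 FPKM in the cells and 3.92, 19.3, 23.9 and 25.4 FPKM in bulk. The empty captures had 0 to 104.9 FPKM of PSAT1. PPP1R15A, ASNS and PSAT1 are known targets of the ATF4 branch. SDF2L1, a chaperone partner in the endoplasmic reticulum, was called lower, with 0, 0.76, 0, 0 and 5.93 FPKM in the cells and 28, 20.6, 106 and 92.3 FPKM in bulk, and CRELD2 likewise, with 0, 3.69, 0.64, 0 and 0 FPKM in the cells and 5.66, 9.59, 29.5 and 22.6 FPKM in bulk. Both are known targets of the ATF6 branch, and both were higher in bulk replicates 3 and 4 than in 1 and 2. Of 15 heat shock genes 1 was called higher and 2 lower (6.67% and 13.3%, against 7.25% and 11.4% over all rows), with a median of -0.94. Of the 2 called lower, 1 passed the filter through bulk alone. HSP90AB1, the constitutive HSP90, was the 1 called higher, with 1153, 2397, 1833, 1159 and 2309.7 FPKM in the cells and 332, 479, 381 and 401 FPKM in bulk.

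NRF2 targets, of the response to oxidants, had 5 of 19 members called lower (26.3%, against 11.4% over all rows) and 1 higher, with a median of -1.43. Of the 5, 1 passed the filter through bulk alone. TXN, or thioredoxin, had 336, 266, 373, 318 and 375 FPKM in the cells and 2161, 1561, 1163 and 1274 FPKM in bulk. PRDX1, a peroxiredoxin, had 339, 511, 239.9, 393 and 408 FPKM in the cells and 1980.5, 1159, 1617 and 2155 FPKM in bulk. AKR1C2, an aldo-keto reductase, had 0.63, 0.38, 2.04, 0 and 0.9 FPKM in the cells and 11.4, 9.44, 25.9 and 29.8 FPKM in bulk. All 3 were below bulk in each cell, TXN to nearly the same level in all. FTH1, the ferritin heavy chain, had 525, 82.3, 1856, 2399 and 414 FPKM in the cells and 4077, 5002, 8293 and 11287 FPKM in bulk, and has many processed copies, so its row is uncertain. TKT, the transketolase, was called higher, with 204, 204, 156, 61 and 83.7 FPKM in the cells and 0, 10.3, 19 and 19.1 FPKM in bulk, with 0 to 316 FPKM in empty captures. Of the other lists, apoptosis regulators had a median of -0.84. Of 21, 3 were called lower and 1 higher (14.3% and 4.76%, near the 11.4% and 7.25% over all rows). Ribosome biogenesis genes had a median of -0.83 (1 of 29 called lower, or 3.45% against 11.4% over all rows, and none higher). Medians of glycolysis (-0.21), cholesterol synthesis (-0.25) and lysosome and autophagy (-0.10) were near that of all genes, and each turned above 0 after quantile normalization (0.01, 0.04 and 0.18). Medians of S100 genes (-0.36), metallothioneins (-0.10, and 0.08 after quantile normalization), keratins (0.08), mesenchymal genes (0.29) and replication-dependent histones (0.33) rested on 5 to 10 genes each. SMAD4, a tumour suppressor of the pancreas, stayed at or below 0.57 FPKM in all 9 libraries, and CFTR, the chloride channel of ductal cells, was listed at 0 in all 9.

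The genes called higher overlapped more with the contents of empty captures than the genes called lower. Of the 814 rows called higher 281 (34.5%) were detected in at least 3 of the 5 empty C1 captures, against 80 of 1277 called lower (6.26%) and 15.2% of all rows compared. Without such genes 533 rows were called higher and 1197 lower. Of the 15 largest differences called higher by the naming rule, ATP9B, TMEM45A, TMEM212 and TNFRSF19 had an empty capture above every cell. ATP9B, a phospholipid flippase, had 161, 299, 238, 219.9 and 207 FPKM in the cells, 10.6, 2.89, 2.63 and 7.46 FPKM in bulk and 209, 849, 89.5, 68 and 70.4 FPKM in the empty captures. TMEM45A, a membrane protein, had 122 to 213 FPKM in the cells, 0 to 6.09 FPKM in bulk and 0 to 701 FPKM in the empty captures. TNFRSF19, a receptor of the tumour necrosis factor family, had 26.4 to 85 FPKM in the cells, 0 to 1.91 FPKM in bulk and 0 to 109.7 FPKM in the empty captures. What part of the cells' level was background was not tested. Other genes were at 0 or low there. B3GNT7, a glycosyltransferase, had 35.2, 61.1, 109, 179 and 33.4 FPKM in the cells, 0, 0.75, 2.39 and 1.36 FPKM in bulk and 0 in all 5 empty captures. SLFN5, an interferon-inducible schlafen gene, had 268, 24.5, 98.9, 154 and 15.3 FPKM in the cells, 0, 3.45, 3.5 and 0 FPKM in bulk and at most 8.08 FPKM in empty captures. The next 3 genes were each held by 1 to 3 empty captures. XYLT2, a xylosyltransferase, had 23.5 to 94 FPKM in the cells, 0 to 0.81 FPKM in bulk and 0 to 44.6 FPKM in empty captures. EFNA5, an ephrin, had 163 to 546 FPKM in the cells, 4.49 to 7.45 FPKM in bulk and 0 to 246 FPKM in empty captures. HIST2H4A, a histone H4 gene with identical copies, had 82.1 to 384 FPKM in the cells, 0 to 4 FPKM in bulk and 0 to 47.5 FPKM in empty captures. HNRPF, a row under an older name of an RNA-binding protein gene, had 68.8, 21.4, 55.3, 245 and 158 FPKM in the cells and 0 in every bulk library, and how its reads were divided with other rows is not known.

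**Figure D4:**
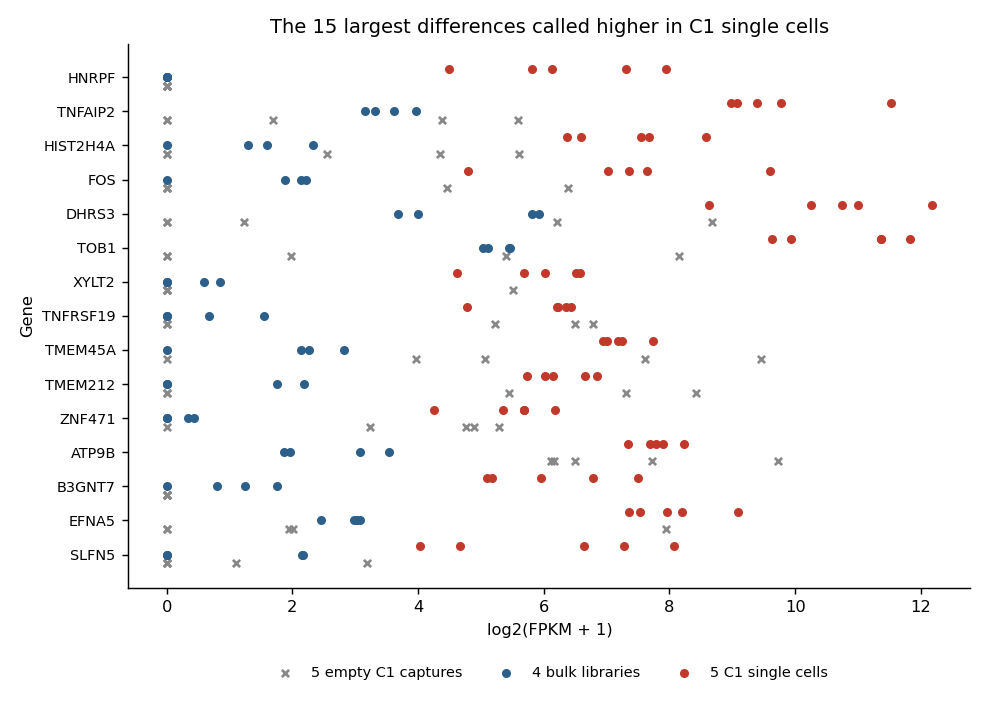
log2(FPKM + 1) of the 15 largest differences called higher in the cells (rows) in each C1 single cell (red), bulk library (blue) and empty C1 capture (grey crosses). The cells lie right of bulk for all 15 genes, and the highest empty capture passes the highest cell for TNFRSF19, TMEM45A, TMEM212 and ATP9B.

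Noncoding and unnamed transcripts were more frequent among genes called higher. Rows whose name matched no gene in the RefSeq table made up 9.79% of rows compared, 33.9% of those called higher and 2.74% of those called lower, with a median difference of 1.43. Long noncoding RNA rows numbered 356, of which 72 were called higher and 11 lower (median 1.25), and coding rows 9482, of which 415 were called higher and 1214 lower (median -0.51). NEAT1, the nuclear RNA that builds paraspeckles, had 30.8, 66.5, 53.8, 39.9 and 53.4 FPKM in the cells and 3.3, 1.93, 1.9 and 3.25 FPKM in bulk, and 257, 1908, 15.3, 0 and 36 FPKM in the empty captures. SNHG12, a host of small nucleolar RNAs, had 196, 96.4, 260.5, 38.2 and 23.3 FPKM in the cells and 12.7, 13.1, 9.81 and 4.64 FPKM in bulk. The empty captures had 0 to 61.6 FPKM of SNHG12. The list of SNHG12 as a whole had a median of -0.04, or 0.18 after quantile normalization. MTRNR2L genes, nuclear copies related to mitochondrial 16S rRNA, were higher in the cells for 8 of 8, with 2 called (25%, against 7.25% over all rows), and 1 of the 8 passed the filter through the cells alone and could only be higher. They took 1.70 to 2.24% of all FPKM in the cells, 0.403 to 0.663% in bulk and 0.0499 to 49.3% in empty captures. MTRNR2L10 had 914, 962, 1207, 1047 and 1056 FPKM in the cells, 248, 194, 195 and 254 FPKM in bulk and 21695, 5124, 0, 0 and 0 FPKM in the empty captures. These rows are near-identical to mitochondrial RNA and to each other, so single values are uncertain. A transcript length was known for 89.2% of rows. In 4 classes of nearly equal size the median difference was -0.47, -0.69, -0.53 and -0.10 from the shortest to the longest.

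Detection in the cells followed the level in bulk. Of rows with a mean bulk level of 1 to 10 FPKM, 21.0% were detected in all 5 cells. That share was 43.1% from 10 to 100 FPKM, 80.9% from 100 to 1000 and 99.2% over 1000. Of the 7205 rows detected in all 4 bulk libraries 3178 (44.1%) were detected in all 5 cells and 357 in none. The 5 cells together detected 14398 rows, 3415 of them in no bulk library, and 1472 of these were seen in a single cell. The number of genes detected averaged 804.9 fewer in the cells than in bulk at an FPKM of 1, and 246.45 more at an FPKM of 0.1, so this direction depends on the level chosen. Without bulk replicate 1 the difference at an FPKM of 1 was -1290.7. Spearman rho across the 11229 rows, which are not independent, averaged 0.498 between 2 cells (10 pairs, 0.472 to 0.535), 0.875 between bulk libraries (6 pairs, 0.822 to 0.922) and 0.377 between a cell and a bulk library (20 pairs, 0.313 to 0.436). The mean of the 5 cells reached 0.561 with the mean of bulk.

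**Figure D5:**
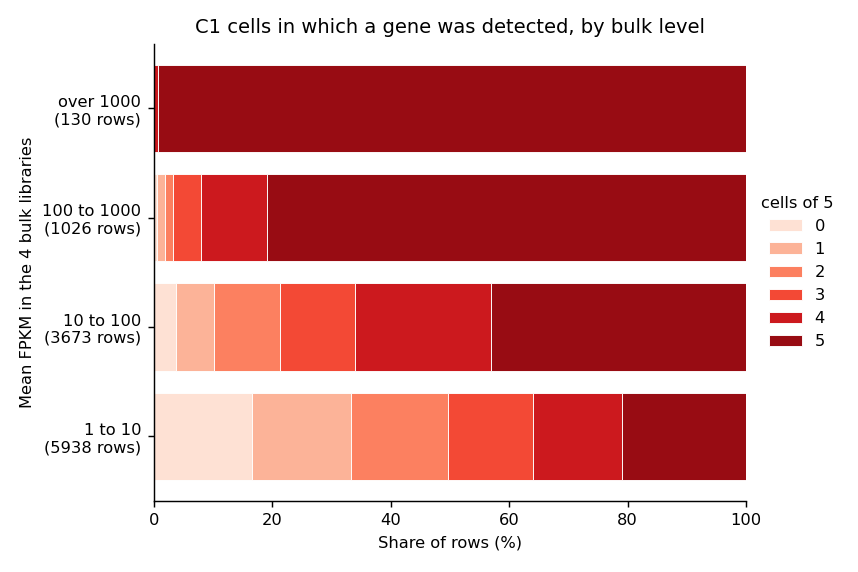
Share of rows (x axis, %) detected at an FPKM of 1 or more in 0 to 5 of the C1 single cells (shades), by the mean FPKM in the 4 bulk libraries (y axis). The share detected in all 5 cells grows from 21.0% in the lowest class to 99.2% in the highest.

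Cells differed from one another more than bulk libraries did. From 10 to 100 FPKM in bulk the median SD of log2(FPKM + 1) was 1.65 over the cells and 0.45 over bulk, and over 1000 FPKM it was 0.49 and 0.28. The SD was larger over the cells for 90.5% of rows in the first of these classes. HLA-DMB, which edits peptides on class II molecules, was the most uneven gene with a mean bulk level over 50 FPKM, with 0, 202, 378, 0 and 198 FPKM in the cells and 52.1, 60.3, 49.2 and 59.5 FPKM in bulk. SPP1, the secreted phosphoprotein osteopontin, had 0, 427, 85, 0 and 0 FPKM in the cells and 487, 469, 593 and 779 FPKM in bulk. KLK6, a secreted kallikrein protease, had 0, 0, 86.2, 37.7 and 722 FPKM in the cells and 71.3, 114, 101 and 84.6 FPKM in bulk. These 3 genes were each at 0 in some cells and high in others. TMEM106C, a membrane protein, had 113, 319, 0, 0 and 159.6 FPKM in the cells and 189.7, 350.2, 387 and 409 FPKM in bulk. Each of these 4 genes was at 0 in at least 2 cells and, except SPP1 and TMEM106C, above every bulk library in at least 1 other. Cell 5 detected the most genes of the 5 (10474) and also the most replication and G2/M genes, and cell 4 detected 8851 genes and the fewest G2/M genes.

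C1 captures of 2 cells and microraft libraries of 1 cell stood beside the C1 single cells as follows. Since all are read against the same bulk libraries, the values are put side by side and no overlap was counted. DHRS3 had 1035, 2213, 2254, 3557 and 1983 FPKM in the 2-cell captures, and its median over the raft libraries was 0. TNFAIP2 had 308, 395, 632, 499.9 and 404 FPKM in the 2-cell captures, and a raft median of 0 FPKM. TOB1 had 1784, 4791, 1272, 2647 and 4222 FPKM in the 2-cell captures, and a raft median of 39.2 FPKM. These 3 genes were thus in every 2-cell capture at a level above all bulk libraries. IRF9 had 45, 30.7, 23.7, 52.1 and 65 FPKM in the 2-cell captures and a raft median of 14.6 FPKM. EPCAM had 70.04, 62.3, 31.8, 35.3 and 42.2 FPKM in the 2-cell captures and a raft median of 248 FPKM. For the interferon list the median against bulk was 1.72 in 2-cell captures and -1.08 in raft libraries, beside 1.23 in the C1 single cells.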

How the data were processed

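RNA of CFPAC-1 libraries was amplified with the SMARTer kit, made into Nextera XT libraries and sequenced, per the labels' protocols. The authors deposited 1 table of FPKM values for the 120 samples. The submitters' processing notes name RSEM and the build hg19, and further settings are not given in the sources used here. No header names the unit. It was taken as FPKM from the values, since totals of the 9 libraries varied by 10.2% (CV) as they stand and by 6.63% when weighted by transcript length. The precision of each value is unknown without counts.

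From these values, log2(FPKM + 1) was computed for the 5 C1 single-cell and 4 bulk libraries on rows with an FPKM of 1 or more in at least 4 of them, with Python 3.11.15, pandas 2.3.3 and numpy 2.4.6. Figures were drawn with matplotlib 3.10.9. The calls need a difference of 2 and no overlap, and the code was tested on simulated data. Samples were grouped by isolation method and number of cells, and replicate numbers follow accession order. No test, p-value or interval was computed, because each group counts as 1 sample.

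Gene lists of cell division, interferon response, epithelium, organelles and stress, and the members, were chosen with earlier results of these data known. By the naming rule, the text draws on the largest called differences, the largest called members of each list, the genes highest in 1 group and at or near 0 in the other, the most variable genes over the cells, and a fixed set that includes CDK1, UBE2S and SLPI. IFI27, ANLN and KIF23 were named after their values were seen. Repeated names, pseudogenes and unmatched identifiers were passed over, so the lists rest on the 10750 rows of names that occur once. Promoter sequences came from the RefSeq table of GRCh38.p14, another build than that of the values, and were matched by symbol only. Pseudocount, scaling, filter, background captures and each library were varied, with the effects given in the closing section. Results for some genes are not reported here.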

Additional observations from a re-analysis of the deposited data

Results flagged for a closer look

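Of 295 sets of values, each over the 5 cells or the 4 bulk libraries, 32 held 1 library far from the rest by Dixon's ratio at the 95% level. That level means 1 in 20 only for normal values in sets not chosen by their values. Many of these genes were named for their differences, zeros or spread, and a gene above 0 in 1 cell alone always has a ratio of 1. The count of 32 therefore cannot be set against chance. Values of the same library are not independent of one another.

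Among the cells, many were genes at or near 0 in 4 cells and higher in the other. Of the division genes, PTTG1 stood at 126.53 FPKM in cell 1, UBE2C at 95.72 FPKM in cell 3, CCNB1 at 28.23 FPKM in cell 2, and CCNB2 at 46.46 FPKM in cell 5. ZWINT stood at 3.96 FPKM in cell 3 and UBE2S at 0.59 FPKM in cell 1. Cell 5 was far above the others for the replication genes GINS2 (68.05 FPKM), RFC4 (19.36 FPKM) and MLF1IP (14.45 FPKM) and for CDA (3.59 FPKM). It also had the highest median difference from bulk over all genes, at -0.026. PTHLH was above 0 in cell 3 alone, at 7.1 FPKM. Cell 1 was far above the other cells for B2M (11685 FPKM) and far below them for XAF1 (28.19 FPKM), KRT7 (8.36 FPKM) and TNFRSF19 (26.44 FPKM). GABRP was lowest in cell 4, at 103.97 FPKM.

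Among the bulk libraries, replicate 1 stood apart most often. It had the fewest genes detected (8570) and the lowest rho with the other bulk libraries (0.791). It was far below the other 3 for FOS and CRABP2 (both listed at 0), TAPBP (34.96 FPKM), GABRP (46.32 FPKM), PSAT1 (3.92 FPKM) and EFNA5 (4.49 FPKM). It was far above them for CKS2 (1128.5 FPKM) and for the median of the snoRNA host list (0.28 above the bulk mean). Replicate 2 was the highest for PBK (131.05 FPKM), SRSF6 (50.02 FPKM), FOSB (0.42 FPKM) and the median of ribosome biogenesis genes (0.083 above the bulk mean). Replicate 3 was the highest for UQCRFS1 (410.53 FPKM).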

How the results depend on the processing

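No paired analysis was possible because no test was made and replicate numbers were given in accession order. The number of genes called higher was 1239 with a pseudocount of 0.1, 297 with 5, 537 with a filter at an FPKM of 5, 533 without genes of empty captures and 1361 at a difference of 1. The number called lower was 717 with a pseudocount of 5. Leaving out 1 library gave 821 to 988 called higher and 1303 to 1515 lower. Genes detected differed by 246.45 at an FPKM of 0.1, a reversal of the -804.9 at an FPKM of 1. With a pseudocount of 0.1 the median difference was -7.53 for G2/M, -5.12 for G1/S, -2.19 for mitochondrial ribosomal, -1.60 for oxidative phosphorylation and -0.61 for all genes, and with 5 it was -2.79, -2.12 and -0.044 for G2/M, G1/S and all genes. With cells averaged before the log it was 1.79 for interferon, 1.11 for epithelial, -1.35 for mitochondrial ribosomal, -1.25 for oxidative phosphorylation and 0.33 for all genes. Quantile normalization gave -0.051 for cytosolic ribosomal, -1.21 for oxidative phosphorylation and 0.044 for all genes, and equal totals gave -1.23 for oxidative phosphorylation and -0.10 for all genes. A filter at an FPKM of 5 gave -4.02 for G1/S and -0.74 for all genes, no filter 0.038 and dropping genes of empty captures -0.47 for all genes. Leaving out 1 library moved the G2/M median between -4.96 and -4.52. Without genes of empty captures 6 of 32 interferon members were called higher, against 533 of 9524 rows. Added after seeing the data, the filter was applied again to the libraries left, which drops genes that passed through bulk alone. Then 18 of 24 G2/M members compared were called lower with any 1 bulk library left out. Over all rows it was 1009 of 10324 to 1158 of 10683. Against bulk replicates 1 and 2 it was 12 of 15 members and 886 of 9269 rows. Against 3 and 4 it was 11 of 15 members and 1000 of 9586 rows. The G2/M medians were -3.46 and -4.24 against those pairs and -4.31 without bulk replicate 3. Of the G1/S members 17 of 27 were called lower against the first pair and 17 of 26 against the second. The median of all genes was 0.026 against replicates 1 and 2. Among 511 values of 26 named genes 488 stayed the same or moved by less than the SD over the cells, and 23 moved by more. Of the 23, 11 were of CDK1, whose SD over the cells is 0. Among genes called higher or lower 0 values changed sign. Changes of sign were not counted for genes not called. One such gene, SLC29A1, went from -0.89 to 0.38 with cells averaged before the log. Depth, which the table does not give, limits what a value of 0 in a cell can show.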
